A study of Mus musculus with 12 samples.

Results

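The pair of arrays described here was Tumor Blood Macrophage High and Normal Blood Macrophage Low, 2 of the 12 arrays of the series. Both hold RNA of flow-sorted blood cells, and the pair was chosen because both carried neutrophil and monocyte genes, while arrays of equal label did not share them. It was thus chosen on measured values, with Csf3r, Ccr2 and S100a8 as the marker genes. Each array was the only one of its condition, so there was no replicate error, no difference could be tested, and no p-value is given.

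The tumor-bearing mice were C57BL/6 mice that received GL261 glioma cells at 7 weeks of age and were killed 2 weeks later. GL261 cells come from a mouse glioma and form intracranial tumors in this strain. The normal mice carry the same strain label and the disease state normal, although the sentence on implantation stands on their samples too. The age given for the normal mice is 7 weeks as well. The study described its tumor hosts as female mice, and the number of mice behind an array is not given. The labels give blood as the tissue and macrophage with the words high or low as the population, and do not say which antigen was high or low. Beside the pair, 4 further blood conditions are used: Tumor Blood Macrophage Low, Normal Blood Macrophage High, and the Gr1+ and Gr1- cells of tumor-bearing mice (Tumor Blood Gr-1 Positive and Tumor Blood Gr-1 Negative). In the following, the tumor array is Tumor Blood Macrophage High, the normal array is Normal Blood Macrophage Low, and a difference is the log2 signal of the first minus that of the second.

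Circulating monocytes and neutrophils both carry CD11b and arise from a shared precursor in bone marrow. Classical monocytes follow CCR2 ligands into inflamed tissue, whereas nonclassical monocytes depend on the nuclear receptor encoded by Nr4a1 and patrol vessel walls. Neutrophils load their granules in order while they mature, primary granules first and gelatinase granules last, and stop transcribing most granule genes before they leave the marrow. Immediate early genes such as Fos and Egr1 are transcribed within minutes of a stimulus, and handling or warming of leukocytes can itself be such a stimulus.

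The labels high and low lay crosswise to the measured genes. Csf3r, the receptor for granulocyte colony-stimulating factor, had log2 signals of 13.33 on the tumor array and 12.25 on the normal array, against 6.15 on Tumor Blood Macrophage Low and 7.04 on Normal Blood Macrophage High. S100a8, a calcium-binding protein of neutrophils and monocytes, had 13.78 and 12.78 on the first 2 arrays, against 8.28 and 8.98 on the other 2. Ccr2, the monocyte chemokine receptor, had 10.96 and 10.77, against 9.69 and 8.93. All 3 markers were higher on both arrays of the pair than on the remaining 2, which is what the choice of the pair used.

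The other 2 arrays carried lymphocyte genes. The 12 NK cell genes had a median log2 signal of 12.51 on Tumor Blood Macrophage Low and 11.20 on Normal Blood Macrophage High, against 7.19 on the tumor array and 7.47 on the normal array, and all 12 were below background on both arrays of the pair. The 11 B cell genes also were all lower on both arrays of the pair than on the other 2, but 8 of them on the tumor array and 9 on the normal array were above background. Over 19938 genes the tumor and normal arrays correlated with r = 0.915, and each was the array most like the other among the 12. The tumor array and Normal Blood Macrophage High, which share the word high, correlated with r = 0.519. The correlations of the other 2 arrays were less clear. Tumor Blood Macrophage Low correlated with r = 0.732 with Normal Blood Macrophage High, for which it was the most like array, but itself was most like Normal Blood Macrophage Low with r = 0.832. Whether high and low name the same population in both conditions cannot be told from these arrays.

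**Figure D1:**
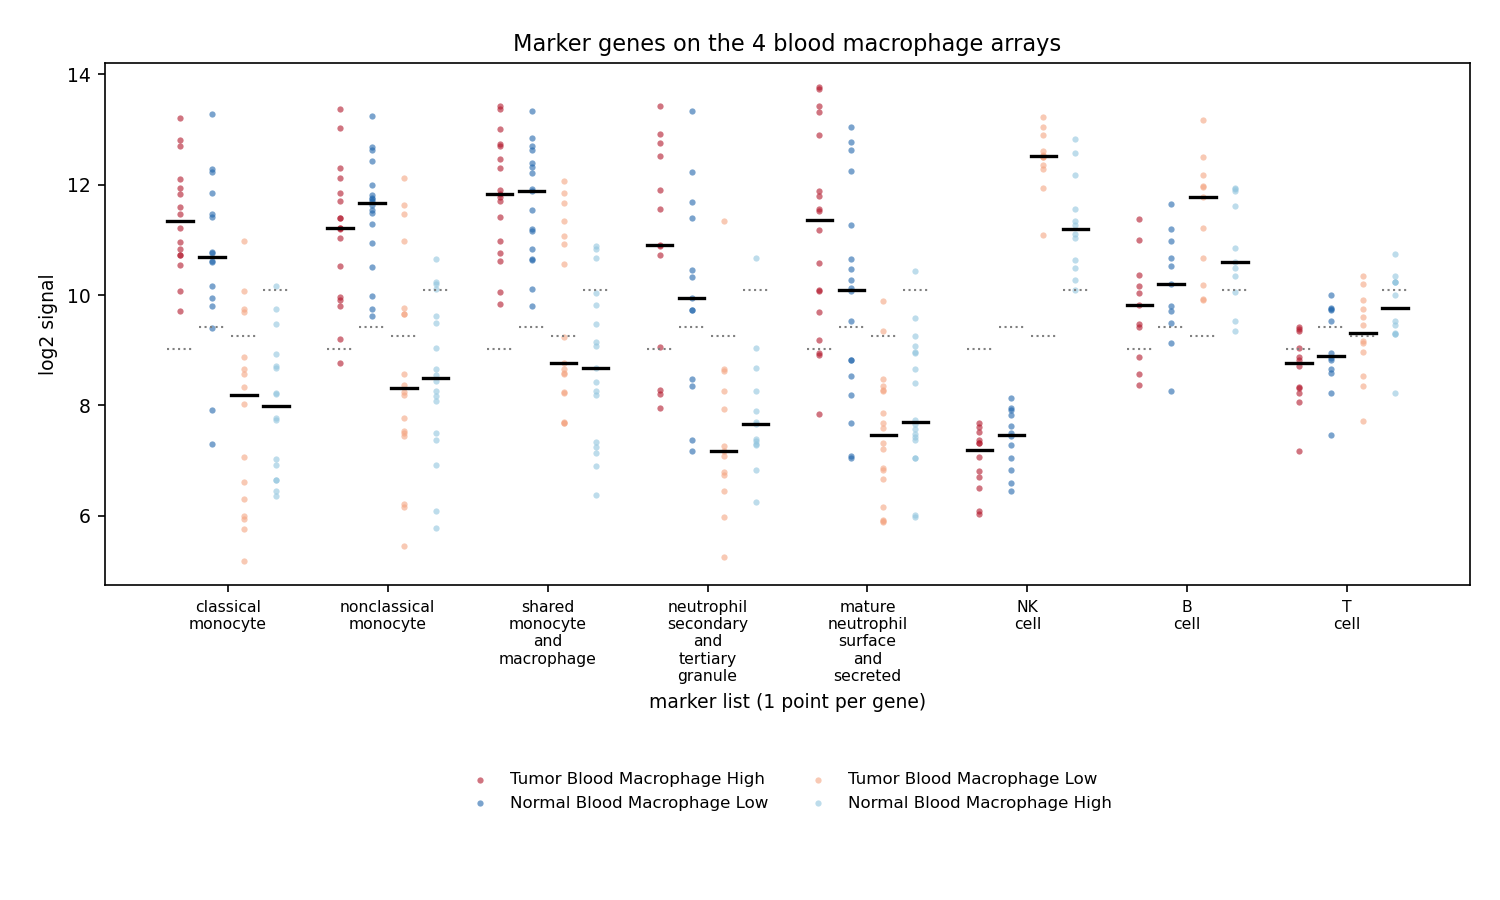
Log2 signal of the genes of 8 marker lists (1 point per gene) on the 4 blood macrophage arrays, with the median of each list as a black bar and each array's background as a dotted line. Monocyte and neutrophil genes lay high on Tumor Blood Macrophage High and Normal Blood Macrophage Low, and NK cell genes lay high on the other 2 arrays (medians 12.51 and 11.20, against 7.19 and 7.47).

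Background was taken on each array as the 95th percentile of 1016 olfactory receptor (Olfr) genes, which blood leukocytes are not known to use. It was 9.02 on the tumor array and 9.41 on the normal array, and 34.9% and 26.2% of genes lay above it. On Normal Blood Macrophage High it was 10.09, with 11.1% of genes above, the lowest share of the 12 arrays (median 32.0%). The median difference of all genes was -0.23, that of the Olfr genes -0.43 with an SD of 0.64, and that of the genes above background on both arrays 0.04. A gene below an array's background has no reliable level there, and such values are called dim.

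Of the 19938 genes, 357 (1.79%) were at least 2-fold higher on the tumor array, a log2 difference of at least 1, and 1154 (5.79%) were at least 2-fold lower. Most of the lower genes were dim, with 1059 of them dim on both arrays, against 61 of the 357 higher genes. Among the 7300 genes above background on at least 1 array, 296 (4.05%) were higher and 95 (1.30%) lower. Among the 4872 above background on both, 133 (2.73%) were higher and 20 (0.411%) lower. A gene could enter the first of these sets through the array on which it was high, and the tumor array had the lower background, so the balance of higher and lower genes there is partly set by the filter. The Olfr genes themselves gave 3 higher (0.295%) and 130 lower (12.8%). The split between higher and lower thus followed signal and scale: centring each array on its median gave 872 higher and 608 lower genes, quantile normalization 675 and 317, and cyclic loess normalization 882 and 393.

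**Figure D2:**
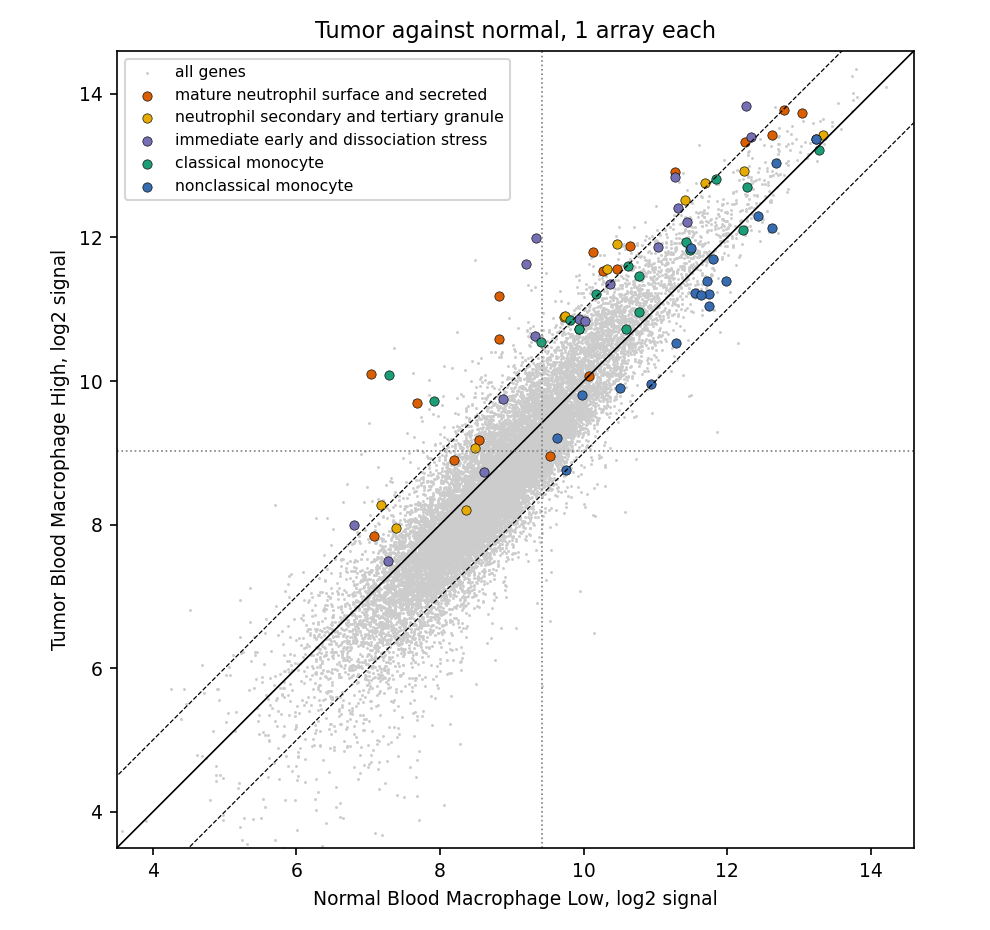
Log2 signal of 19938 genes on the normal array (x axis) and the tumor array (y axis), with 5 gene lists coloured. The solid line marks equal signal, the dashed lines a log2 difference of 1 either way and the dotted lines the backgrounds of 9.41 and 9.02; neutrophil and immediate early genes lie mostly above the solid line, nonclassical monocyte genes mostly below it.

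Many genes of maturing and mature neutrophils were higher on the tumor array. Of 13 genes of secondary and tertiary granules, 7 were at least 2-fold higher and none lower. Their median difference was 1.07, against -0.23 for all genes and 0.10 for genes above background on at least 1 array. Over all genes 1.79% were higher and 5.79% lower, and over genes above background on at least 1 array 4.05% and 1.30%. These shares also stand beside the counts of the lists below. Of 18 genes of the surface and secretions of mature neutrophils, 10 were higher and none lower, with a median of 1.08, and 1 of the 10 is Csf3r, a marker that the choice of the pair used. The medians of both lists stayed between 0.97 and 1.38 under the 3 other scales. Neutrophil genes were already high on the normal array, so a larger share of neutrophils in the sorted cells and more of these transcripts per cell cannot be told apart.

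Retnlg, a resistin-like secreted protein of neutrophils, had a log2 signal of 11.91 on the tumor array and 10.46 on the normal array, a 2.72-fold difference. Ngp, a granule protein, had 11.56 and 10.32, and Padi4, which citrullinates histones when neutrophils release chromatin, had 10.91 and 9.74. Each of these was higher on the Gr1+ than on the Gr1- array, as were all 13 members of the list, against 8420 of all 19938 genes. Of the 13 members, 10 were above background on the Gr1+ array and 1 on the Gr1- array. The Gr1- array is labelled blood, but all 9 microglia genes measured were above its background, against 3 on the Gr1+ array. Its most like array was a brain array, Tumor Brain Macrophage, with r = 0.962. The contrast of Gr1+ and Gr1- thus cannot be read as one between blood leukocytes alone. Lcn2, an iron-siderophore-binding protein, had 12.52 on the tumor array and 11.40 on the normal array. Mmp8, the neutrophil collagenase, had 12.76 and 11.69, and Chil1, a chitinase-like protein, had 10.89 and 9.73. All 6 were above background on both arrays, whereas the seventh called member, lactoferrin (Ltf), was dim on both with 8.27 and 7.18. Mmp9, a gelatinase, had 12.92 and 12.23, a difference of 0.69 that fell short of 2-fold. Camp and Itgb2l were dim on both arrays like Ltf, so 3 of the 13 had no reliable level on either. Ltb4r1 had 9.07 on the tumor array and a dim 8.48 on the normal array. With values under background raised to it, its difference was -0.35.

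None of the 6 genes of the primary granule list was above background on either array. Genes of primary granules are transcribed in promyelocytes, but the list also holds Ms4a3 and Serpinb1a, which do not encode granule proteins. Serpinb1a, dim with 8.87 on the tumor array and 8.19 on the normal array, had the only difference above 0. Myeloperoxidase (Mpo) had 8.28 on the tumor array and 8.52 on the normal array, and the median difference of the 6 was -0.24, near that of all genes, but it turned to 0.12 under quantile and under cyclic loess normalization and was just above 0 after median centring. The same genes were also dim on the other 2 blood macrophage arrays and on the Gr1+ array.

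Among the genes of mature neutrophils, Cxcl2, a chemokine that draws further neutrophils, had 10.10 on the tumor array and a dim 7.04 on the normal array. Il1r2, the decoy receptor for interleukin 1, had 11.19 and a dim 8.82. Acod1, which makes itaconate, had 9.69 and a dim 7.68, and Stfa2, a stefin that inhibits cysteine proteases, had 10.58 and a dim 8.82. The normal array gave no reliable level for these 4, so their folds of 3.40 to 8.31 rest on values under its background. With values under background raised to it, their differences were 0.68 for Cxcl2, 1.77 for Il1r2, 0.28 for Acod1 and 1.17 for Stfa2.

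Both arrays measured the other 6 called genes of this list. Hdc, which makes histamine, had 11.79 on the tumor array and 10.13 on the normal array, a 3.17-fold difference. Clec4d, a C-type lectin that recognises fungal and mycobacterial glycolipids, had 12.91 and 11.27, a 3.12-fold difference. Asprv1, an aspartic protease, had 11.53 and 10.27, and Slpi, an inhibitor of neutrophil elastase, had 11.88 and 10.65. Trem1, a receptor that amplifies inflammatory signals, had 11.56 and 10.47, and Csf3r, whose values are given above, differed by 1.08. The receptor Cxcr2, through which neutrophils leave the marrow, had 13.43 and 12.62, and S100a9, the partner of S100a8, had 13.73 and 13.04, both short of 2-fold. S100a8 itself lay just outside the threshold with a difference of 0.99. Ly6g, the antigen of neutrophils that anti-Gr1 antibodies bind, was dim on both arrays with 8.91 and 8.20, and on the Gr1+ array too with 8.52.

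The 2 sets of monocyte genes differed in direction. Of 16 classical monocyte genes 5 were at least 2-fold higher and none lower, with a median difference of 0.74 and 14 of 16 above 0. Of 18 nonclassical monocyte genes none was 2-fold apart, but 15 of 18 differences were below 0 and the median was -0.42. Over all genes 33.2% of differences were above 0. The genes above background on at least 1 array had a median of 0.10, so most of those differences were above 0. The nonclassical median was between -0.19 and -0.47 under the 3 other scales, while the classical median was between 0.68 and 0.97. Of 17 genes shared by monocytes and macrophages none was 2-fold apart, and their median was 0.09, or -0.02 under quantile normalization.

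Vcan, the proteoglycan versican, had 10.08 on the tumor array and a dim 7.30 on the normal array. Cd14, a co-receptor for lipopolysaccharide, had 9.72 and a dim 7.92. Mgst1, a glutathione transferase, had 10.55 and 9.40, a value just under the background of 9.41. Clec4e, the receptor Mincle, had 11.22 and 10.17, and Chil3, a chitinase-like protein of classical monocytes, had 10.84 and 9.81. The last 2 were above background on both arrays and about 2-fold apart, whereas Vcan and Cd14 with the floor at background differed by 0.67 and 0.30. Haptoglobin (Hp) with 11.60 and 10.62 and guanine deaminase (Gda) with 12.81 and 11.84 lay just under the threshold. Fibronectin (Fn1) had 12.70 and 12.28, lysozyme (Lyz2) 13.21 and 13.28, and Ccr2 differed by 0.19. Thus the list did not move as one: Ccr2 and Lyz2 had nearly equal signals on both arrays. Several of the genes that were higher, Clec4e, Hp, Mgst1 and Chil3 among them, are also transcribed by neutrophils, and this overlap was not separated here.

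Among the nonclassical genes, Eno3, a muscle-type enolase, had 9.96 on the tumor array and 10.94 on the normal array. Cx3cr1, the fractalkine receptor, had 10.53 and 11.28, and Pparg, a lipid-sensing nuclear receptor, had 11.04 and 11.74. Treml4 had 11.39 and 11.99, and Ace, the angiotensin-converting enzyme, 12.13 and 12.62. Hes1, a Notch target, was dim on the tumor array with 8.77 and had 9.75 on the normal array. All of these were lower on the tumor array, each by less than 2-fold. Nr4a1, on which these cells depend, had 13.37 and 13.24, and the integrin Itgal had 13.03 and 12.68, so the 2 brightest members of the list were not lower, while Ceacam1, an adhesion molecule that came next on the tumor array, had 12.30 and 12.42. On both arrays of the pair the nonclassical list was far above its level on the Gr1+ and Gr1- arrays, with medians of 11.22 and 11.67 against 8.99 and 8.87. The Gr1- array, as given above, also carried microglia genes, so this is not a comparison of blood leukocytes alone.

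Genes of the shared list held nearly level. Cybb, the catalytic subunit of the phagocyte oxidase, had 13.42 on the tumor array and 13.33 on the normal array, and Mpeg1, a pore-forming protein of phagosomes, had 12.70 and 12.69. Csf1r, the receptor for macrophage colony-stimulating factor, had 11.90 and 12.21. The adaptor Tyrobp, with 13.38 and 12.63, had the highest difference of the 17, followed by the Fc receptor Fcgr3 with 11.78 and 11.16, and the adaptor Fcer1g had 13.01 and 12.84. Against this nearly level shared set, the neutrophil lists stood higher on the tumor array.

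**Figure D3:**
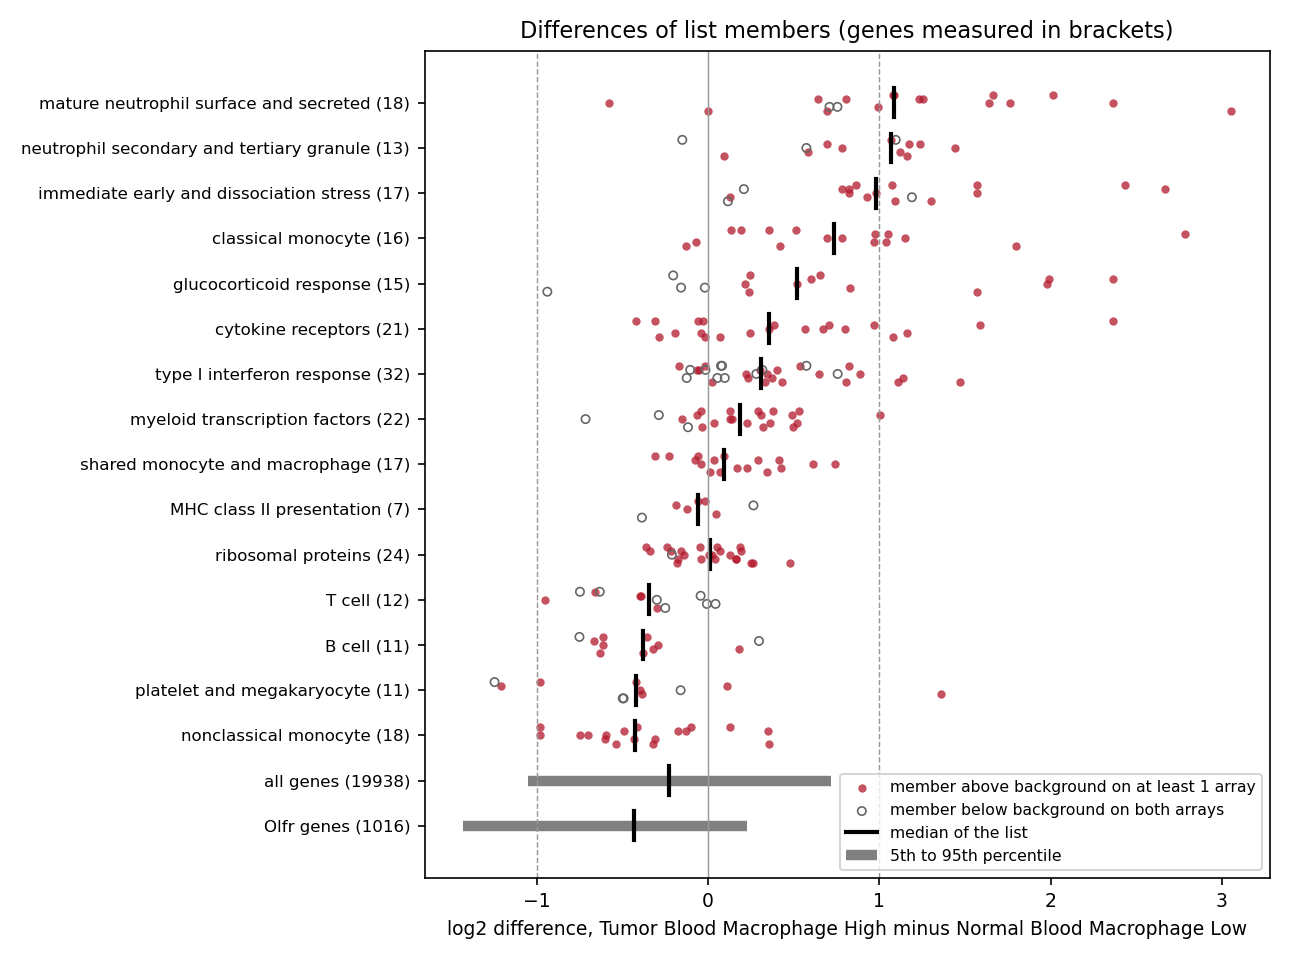
Log2 difference of each measured member of 15 gene lists, with open circles for members below background on both arrays, a black bar at each list's median and, for comparison, the median and the 5th to 95th percentile of all genes and of the Olfr genes. Medians ran from 1.08 for mature neutrophil genes to -0.42 for nonclassical monocyte genes; the dashed lines mark 2-fold, and a gene may stand in more than 1 list.

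Many immediate early genes were higher on the tumor array. Of 17 genes of this response and of the stress that follows cell dissociation, 8 were at least 2-fold higher and none lower, and the median difference was 0.98. All 17 differences were above 0, but Egr2, Ier3 and Hspa1a were dim on both arrays and Nr4a1 differed by 0.13. Fosb, a subunit of the AP-1 transcription factor, had 11.998 on the tumor array and 9.33 on the normal array, just under its background. Egr1, a zinc-finger transcription factor, had 11.64 and a dim 9.20. Dusp1, a phosphatase that turns off MAP kinases, had 13.83 and 12.26, and Fos had 12.85 and 11.28, each a 2.97-fold difference. Atf3, a stress-induced repressor, had 10.63 and a dim 9.33. Jund had 12.41 and 11.32, Zfp36, which speeds the decay of cytokine mRNAs, 13.40 and 12.33, and Ier3 was dim on both arrays with 7.997 and 6.81. Jun, with 11.35 and 10.37, and Junb, with 10.86 and 9.93, lay just under 2-fold.

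Genes of this list were also higher on the tumor array of the other crosswise pair, Tumor Blood Macrophage Low minus Normal Blood Macrophage High, which shares no array with this one. There 11 of the 17 were at least 2-fold higher and 1 lower, and 6 were higher in both pairs (Fos, Fosb, Jund, Egr1, Zfp36 and Dusp1). Dusp1 had 10.62 on Tumor Blood Macrophage Low and 8.38 on Normal Blood Macrophage High, Fosb had 11.02 and 8.78, and Fos differed by 2.65 with 8.35 on Normal Blood Macrophage High. These 3 values of Normal Blood Macrophage High were dim on that array, whose background was 10.09. Egr1, with 9.32 and 8.20, was dim there as well. Of the 17 genes, 4 were above background on Normal Blood Macrophage High: Jund, Zfp36, Btg2 and Hsp90aa1. The 2 tumor arrays had the higher signal for the 6 shared genes in cells with different marker genes. For Fos, Fosb, Egr1 and Dusp1, however, Normal Blood Macrophage High gave no reliable level. No floor at background was applied to that pair. In that pair 13.5% of all genes were at least 2-fold higher. Genes above background on at least 1 array of the first pair had a median of 0.48 there, and 32.1% were 2-fold apart either way. Of 15 integrin and selectin ligand genes 10 were higher there, and of 22 myeloid transcription factor genes 10, with none lower. None of 24 ribosomal protein genes was 2-fold apart there. The higher signal in that pair was thus not particular to this list.

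**Figure D4:**
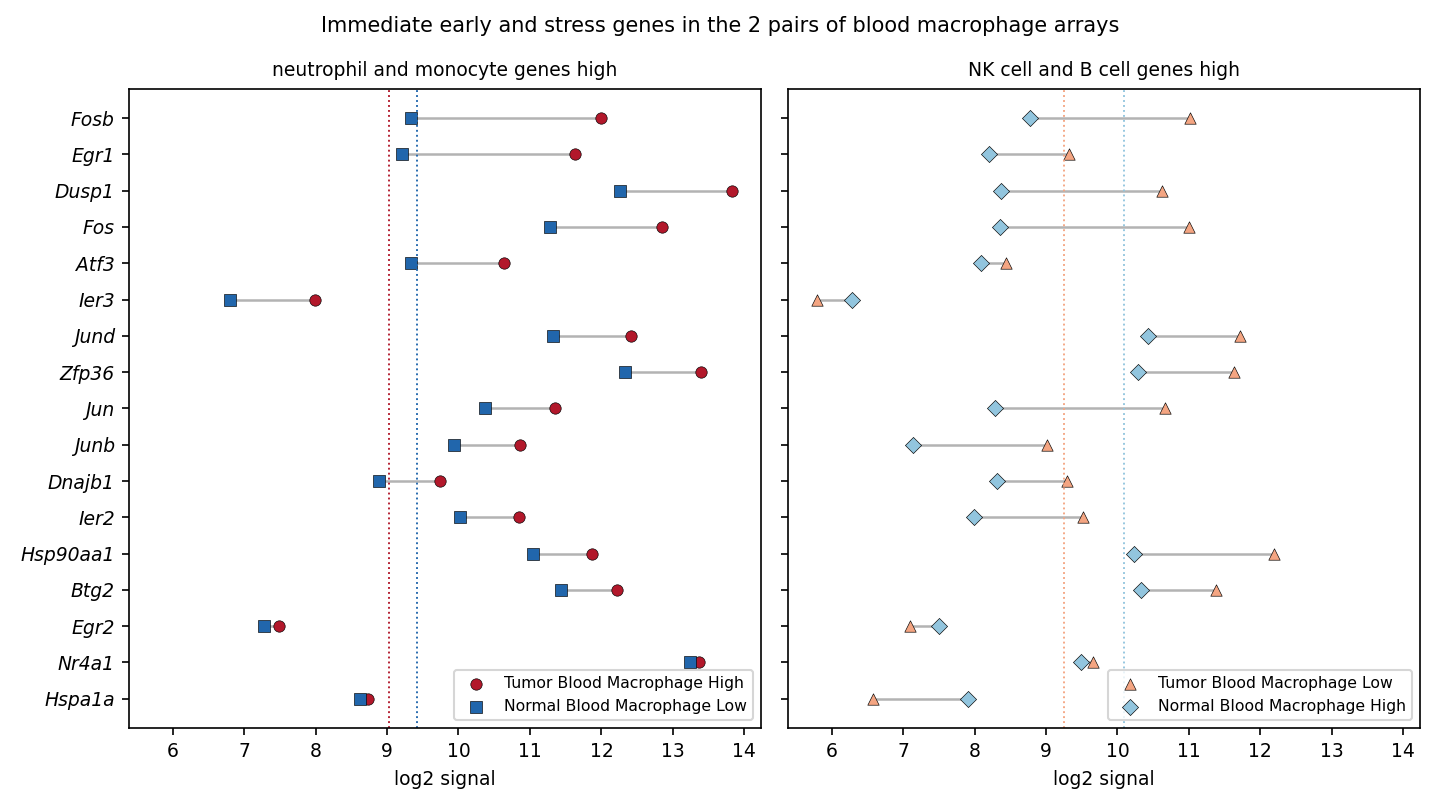
Log2 signal of 17 immediate early and stress genes on the tumor and normal arrays of the pair described here (left) and of the pair with NK cell and B cell genes (right), with dotted lines at each array's background. All 17 tumor values lie above the normal ones on the left, and on the right Egr2, Ier3 and Hspa1a lie the other way.

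The upstream sequences of 4 called genes of this list and of the chemokine gene Cxcl2, which is in the neutrophil list above, are shown with the letters of 3 known inducible elements in capitals, because genes of these kinds gave many of the higher signals. Sequences are RefSeq's for the mouse build GRCm38.p6, on the gene's strand, and each ends at the base before the annotated start. The letters TGACGNNA, a relaxed form of the cAMP response element, were searched on both strands of the 250 bases before the start. They are in capitals in Fosb (chr7:19310046-19310205, minus strand), Atf3 (chr1:191183334-191183493, minus strand) and Dusp1 (chr17:26508473-26508632, minus strand). In Zfp36 (chr7:28379229-28379388, minus strand) the capitals mark a CArG box, the site of serum response factor, and in Cxcl2 (chr5:90903739-90903898, plus strand) a pair of overlapping kappa-B letters, the motif of NF-kappa-B.
Fosb: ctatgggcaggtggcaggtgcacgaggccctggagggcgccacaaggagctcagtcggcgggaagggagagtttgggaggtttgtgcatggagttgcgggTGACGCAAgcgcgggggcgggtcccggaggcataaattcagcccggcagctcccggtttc
Atf3: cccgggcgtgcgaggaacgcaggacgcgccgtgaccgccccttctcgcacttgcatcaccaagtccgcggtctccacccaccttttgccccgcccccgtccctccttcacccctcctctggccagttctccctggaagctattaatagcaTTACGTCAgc
Dusp1: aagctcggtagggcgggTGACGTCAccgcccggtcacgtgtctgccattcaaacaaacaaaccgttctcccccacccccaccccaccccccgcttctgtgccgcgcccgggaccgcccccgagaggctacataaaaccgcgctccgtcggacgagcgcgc
Zfp36: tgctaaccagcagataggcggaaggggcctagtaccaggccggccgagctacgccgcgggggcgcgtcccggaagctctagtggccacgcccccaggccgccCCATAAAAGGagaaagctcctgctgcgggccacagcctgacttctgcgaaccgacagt
Cxcl2: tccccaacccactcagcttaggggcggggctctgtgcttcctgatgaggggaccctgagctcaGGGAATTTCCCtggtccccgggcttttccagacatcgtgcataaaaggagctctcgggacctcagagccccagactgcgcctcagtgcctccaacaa

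The relaxed cAMP response letters were found in 7 of the 14 genes of the immediate early list that had a promoter entry (Fos, Fosb, Junb, Egr2, Atf3, Btg2 and Dusp1), against 6.50% of 27025 genes and 5.66% of 32851 promoters of the same length. A CArG box was found in 2 of the 14 (Egr2 and Zfp36), against 1.62% of genes, and kappa-B letters in none, against 2.41% of genes. The list is known for such elements, and a letter match is neither a bound site nor a cause of the values. In Fosb the letters lay 60 to 53 bases before the start, in Dusp1 143 to 136, in Atf3 10 to 3 and in Zfp36 58 to 49.

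Glucocorticoid-induced genes were partly higher. Of 15 genes 4 were at least 2-fold higher and none lower, with a median of 0.52. Fkbp5, a co-chaperone of the glucocorticoid receptor, had 11.26 on the tumor array and 9.27 on the normal array, and the clock gene Per1 had 11.31 and 9.33. Both were dim on the normal array, and with the floor their differences were 1.85 and 1.89. The other 2 called members were Il1r2 and Dusp1, which stand in the lists above as well. Tsc22d3, a leucine zipper protein induced by the hormone, had 11.79 and 11.14, and Zbtb16 had 10.97 and 10.14, both short of 2-fold. In the other crosswise pair 5 of the 15 were higher, against 13.5% of all genes. Of the genes above background on at least 1 array of the first pair, 32.1% were 2-fold apart there either way. Fkbp5 had 10.43 on Tumor Blood Macrophage Low and a dim 8.18 on Normal Blood Macrophage High. Of the 15 genes only Txnip was above background on Normal Blood Macrophage High, so the other calls in that pair rest on dim values.

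The 15 genes with the highest difference among those whose brighter array was above background were all dim on the normal array, so for each the tumor array measured the gene and the normal array did not. Ptgs2, cyclooxygenase 2, came first with 11.69 on the tumor array and 8.49 on the normal array, a 9.16-fold difference that was 2.27 on the log2 scale with the floor. On Tumor Blood Macrophage Low and Normal Blood Macrophage High it was dim as well, with 6.56 and 7.24, and it had 10.50 on the Gr1+ array. Ccr3, the eotaxin receptor of eosinophils and basophils, had 10.68 on the tumor array and 8.23 on the normal array. It was dim on every other array of the plot of the 15 genes, the Gr1+ array with 7.38 included.

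Osm, the cytokine oncostatin M, had 10.02 on the tumor array and a dim 7.85 on the normal array. Ccl3, a chemokine for monocytes and lymphocytes, had 11.34 and a dim 9.23, and it was also above background on Tumor Blood Macrophage Low with 11.25. Rab44, a large GTPase of the Rab family, had 10.21 and 8.05, and Taf7, a subunit of the general transcription factor TFIID, had 10.46 and 7.35. Cxcl2, Vcan, Fosb, Egr1 and Il1r2, described above, also stood among the 15. Of the remaining 4, Sycp2 of the synaptonemal complex had 10.12 and 7.62, the defensin Defb38 9.42 and 7.02, the bitter taste receptor Tas2r126 9.74 and 7.64, and the transporter Slco4c1 9.03 and 6.95. Slco4c1 lay 0.004 above background on the tumor array, and with the floor its difference turned to -0.39.

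**Figure D5:**
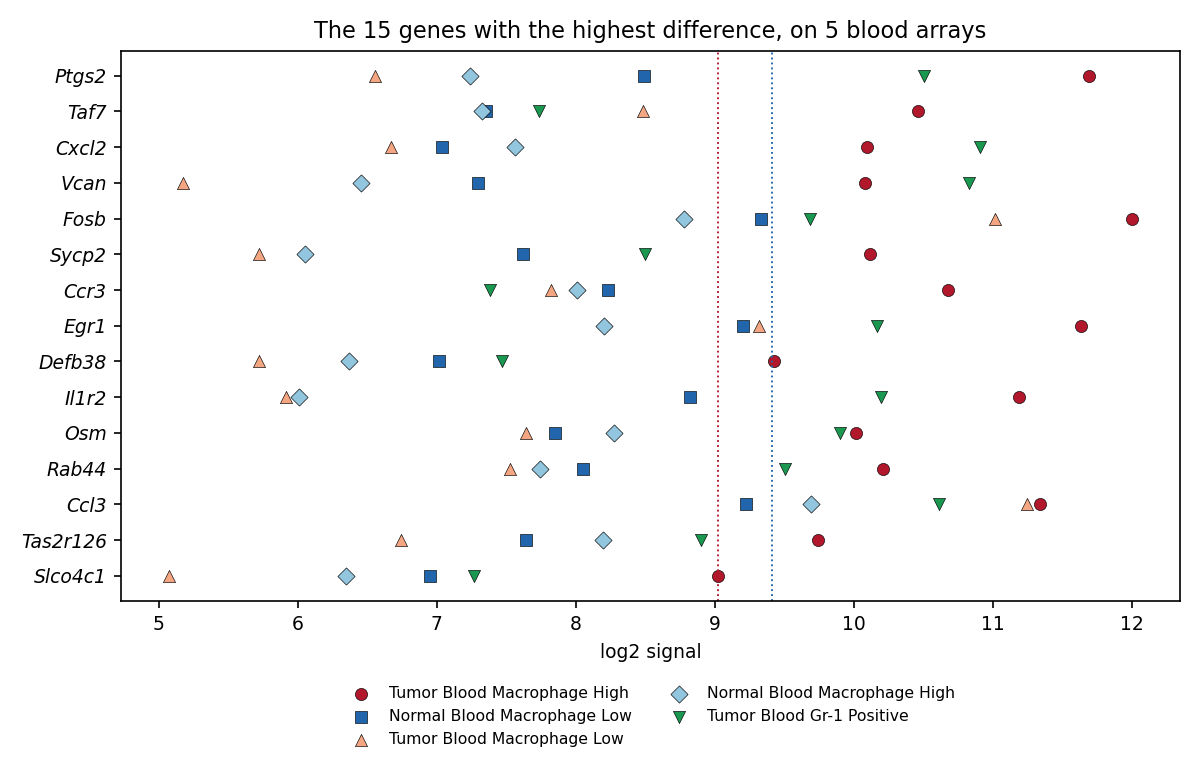
Log2 signal of the 15 genes with the highest difference on the 4 blood macrophage arrays and on the Gr1+ array of tumor-bearing mice, with dotted lines at the backgrounds of the tumor array (9.02) and the normal array (9.41). All 15 normal array values lie under that array's background, and the tumor array values lie 0.004 to 2.98 above theirs (median 1.19).

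Cytokines and their receptors gave further members. Of 18 cytokine genes 3 were higher and 1 lower: Csf1, macrophage colony-stimulating factor, had 11.62 on the tumor array and 10.08 on the normal array, Il15 had 10.03 and a dim 8.56 (0.62 with the floor), and Osm is given above. The lower gene, Il12b, was dim on both arrays. Il1b had 13.11 and 12.34, a difference of 0.77. Of 21 cytokine receptor genes 4 were higher and none lower: Il1r2, Csf3r, Il1rap, the shared chain of the interleukin 1 receptor, with 11.26 and 9.67, and Csf2rb2, the interleukin 3 receptor chain, with 9.91 and a dim 8.75 (0.49 with the floor).

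Of 20 chemokine genes 3 were higher and 3 lower. Of these 6, Cxcl2, Ccl3 and the lower Ppbp were above background on an array, whereas the higher Ccl4 and the lower Ccl12 and Pf4 were dim on both. Of 14 chemokine receptor genes 3 were higher. Ccr1, a receptor for CCL3, had 11.11 on the tumor array and 9.61 on the normal array, Ccrl2 had 9.34 and a dim 8.29, and Ccr3 is given above. Ccrl2 differed by -0.08 with the floor, so this call rests on dim values.

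Sensors of microbes and danger gave few calls. Of 16 genes of Toll-like receptors and their adaptors 2 were higher, Cd14 and Tlr4, and 1 lower. Tlr4, the lipopolysaccharide receptor, had 9.83 on the tumor array and a dim 8.49 on the normal array, a difference of 0.42 with the floor, while Ticam2, its adaptor, had 9.11 and 10.28 and was at least 2-fold lower. Of 11 inflammasome genes 2 were higher, Nlrp3 with 11.46 and 10.32 and Casp4 with 10.88 and 9.76, both above background on both arrays.

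Single genes of further lists were higher too. The receptor Cd300lf had 12.02 on the tumor array and 10.45 on the normal array and the protease Adam8, which sheds surface proteins, 12.15 and 10.50, each about 3-fold apart. Anxa1, a lipid-binding protein that glucocorticoids induce, had 12.02 and 10.96. Slc40a1, the iron exporter ferroportin, had 12.76 and 11.57. Slc7a11, the cystine transporter, had 10.51 and a dim 9.02, and Cd80, a T cell costimulator, had 10.01 and a dim 8.63 (0.59 with the floor).

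Interferon and antigen presentation genes differed less. Of 32 genes of the type I interferon response 3 were higher and none lower, with a median of 0.31. Slfn4 had 11.76 on the tumor array and 10.29 on the normal array, Slfn1 had 11.89 and 10.75, and Oas2, a sensor of double-stranded RNA, had 10.06 and a dim 8.95 (0.64 with the floor). Oasl2 with 11.43 and 10.55, Oas3 with 10.34 and 9.51 and Trim30a with 11.34 and 10.54 fell short of 2-fold. Irf7, the master regulator of the response, had 10.90 and 10.88, and Ly6e 13.30 and 13.35. Differences above 0 were seen for 25 of the 32, against 33.2% of all genes. The genes above background on at least 1 array had a median above 0 themselves (0.10), and 11 of the 32 were dim on both arrays. None of 7 MHC class II genes was 2-fold apart, with a median of -0.06 that turned to 0.18 after median centring: H2-Eb1 had 11.72 and 11.84, and the invariant chain Cd74 12.27 and 12.33. The 24 ribosomal protein genes had a median of 0.01, or -0.06 under quantile normalization, and none was 2-fold apart.

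Markers of other blood cells gave few calls. Their medians lay near those of all genes (-0.23) and of the Olfr genes (-0.43). They lay below the median of genes above background on at least 1 array (0.10). Of the 11 B cell genes 9 were above background on at least 1 array, and 9 had differences below 0. The B cell genes had a median difference of -0.38, or -0.14 after median centring, none 2-fold apart: Cd79a, part of the B cell receptor, had 10.99 on the tumor array and 11.66 on the normal array. The 12 T cell genes had a median of -0.35, or -0.11 after median centring, with none 2-fold apart, and the NK cell genes one of -0.43, or 0.09 under quantile normalization, with 1 lower, Eomes, dim on both. Of 11 platelet genes, Ppbp, a platelet chemokine, had 9.51 and 10.72 and was 2-fold lower, Pf4 was dim on both arrays with 7.08 and 8.33, and F5, coagulation factor V, had 10.61 and a dim 9.25 and was 2.57-fold higher. Of 4 red cell genes Slc4a1, the anion exchanger, had 9.55 and 10.96 and was 2-fold lower, and Alas2, the first enzyme of heme synthesis in red cells, had 12.06 and 12.71. Differences above 0 were seen for none of the 4 red cell genes and 2 of the 11 platelet genes, against 33.2% of all genes. Of the 4 and the 11, 2 and 7 were above background on at least 1 array, and the part of such RNA in the other differences was not tested.

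Eosinophil and basophil genes were mixed. Besides Ccr3, Cpa3, a carboxypeptidase of mast cells and basophils, had 9.80 on the tumor array and a dim 7.85 on the normal array (0.39 with the floor), and 11.11 on Tumor Blood Macrophage Low. Siglecf, a lectin of eosinophils, had 10.32 and 9.63, and Alox15, a lipoxygenase of eosinophils and macrophages, had 10.52 and 9.40, just under background. Eosinophil peroxidase (Epx) was dim on both arrays with 7.80 and 8.82. Of the 11 genes of the list 4 were above background on the tumor array and 2 on the normal array.

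The 15 genes with the lowest difference among those whose brighter array was above background ran from -3.66 for Gk2 to -1.72 for Dppa2. Of these, 14 were dim on the tumor array, and 13 were brighter still on Normal Blood Macrophage High than on the normal array, Gk2 and Igkv4-91 being the exceptions. Gk2, a testis glycerol kinase, had 5.76 on the tumor array and 9.42 on the normal array, 0.009 above background there. Igkv4-91, an immunoglobulin light chain variable segment, had 6.50 and 10.14, and Vmn1r180, a pheromone receptor, 6.66 and 9.54. Others were the pheromone receptor Vmn1r43, the germ cell gene Dppa2, the epidermal gene Hrnr and the type I interferon Ifnz. Gm7982, the only one of the 15 above background on both arrays with 9.29 and 11.86, was represented by the brightest of 17 probe sets.

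At the edge of the threshold, Id2 (1.0013), Rab6a and Cop1 lay just inside the higher genes and Prpf18 (0.99985), Baz2b and Ccpg1 just outside. On the other side Clec2g (-1.0034) and Hfe lay just inside and Nlgn2 and Lilra5 just outside. A gene's side of the threshold thus turned on differences far smaller than the SD of 0.64 of the Olfr genes.

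The other crosswise pair shared part of these calls. Of the 357 higher genes 112 (31.4%) were at least 2-fold higher there too, against 13.5% of all genes, and 16 (4.48%) were lower. Of the 1154 lower genes 559 (48.4%) were lower there too, against 13.2% of all genes, and 11 (0.953%) were higher. Each of the 2 pairs sets a tumor-bearing against a normal condition, and they share no array. However, the shares of all genes are not matched for signal. Genes above background on at least 1 array of the first pair had a median difference of 0.48 in the other pair, and 32.1% were 2-fold apart there. The Olfr genes had a median of -0.88 there, with 36.5% 2-fold apart. Most of the 357 were above background and most of the 1154 were dim, and the overlap was not tested.

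Had the arrays been paired by label, the neutrophil genes would have had opposite signs in the 2 pairs. Csf3r differed by 6.29 between Tumor Blood Macrophage High and Normal Blood Macrophage High and by -6.09 between Tumor Blood Macrophage Low and Normal Blood Macrophage Low. At least 2-fold differences were seen for 3520 higher (17.7%) and 6564 lower (32.9%) genes in the first of these pairs, and for 656 (3.29%) and 1208 (6.06%) in the second.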

How the data were processed

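RNA of flow-sorted cells was amplified in 2 cycles by the authors and hybridised to Affymetrix Mouse Gene 1.0 ST arrays, 12 arrays with 1 per condition. The authors corrected, normalized and summarised probe intensities in Affymetrix's Expression Console, the submitters' notes name RMA, and what they deposited is a table of log2 signals. The annotation release and genome build are not given in the sources used here.

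Of 28944 probe sets, 21789 carried 1 gene symbol in the platform annotation. The 1621 with several symbols and the 5534 with none were not used. For 999 genes with more than 1 probe set, that with the highest mean over the 12 arrays stood for the gene, giving 19938 genes in all. Values were neither rescaled nor filtered. A difference is the log2 signal of Tumor Blood Macrophage High minus that of Normal Blood Macrophage Low, and at least 2-fold means a log2 difference of at least 1 either way. The adjusted p-values that the methods name cannot be had from 2 single arrays. Values under the 95th percentile of the Olfr genes of the same array were marked as dim. The number of arrays limits the precision, and no replicate error can be given.

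The pair, the 43 gene lists (605 of 690 entries measured) and the motifs were chosen with earlier results of these data known. The text names the 15 highest and 15 lowest differences with the brighter array above background, the 3 markers, and from each list described up to 6 members with the largest differences, up to 4 of the brightest and the members of small counts. Genes at the edge of the threshold and a few further members were named after their values were seen. Other settings tried were 3 scales (arrays centred on their medians, quantile, cyclic loess), averaging a gene's probe sets, a floor at background, other background percentiles, a 4-fold threshold and the pairs of equal label. The computation was tested on simulated data. Tables were computed in Python 3.11.15 (pandas 2.3.3, numpy 2.4.6), figures with matplotlib 3.10.9, and the normalizations in R 4.3.3 (limma 3.58.1).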

Additional observations from a re-analysis of the deposited data

Results flagged for a closer look

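Several genes had tumor minus normal differences of opposite sign, each at least 2-fold, in the 2 crosswise pairs, which share no array. In the pair with NK cell genes (Tumor Blood Macrophage Low minus Normal Blood Macrophage High) the log2 difference was -2.32 for Slc40a1, -2.13 for Mmp8, -1.45 for Tas2r126, -1.28 for Vcan, -1.27 for Slco4c1 and -1.06 for Trem1, whereas all 6 were higher on the tumor array of the myeloid pair. Eomes went the other way, with 1.44 in the pair with NK cell genes, against -1.02 in the myeloid pair. The 6 genes were dim on both arrays of the NK-type pair and Eomes was dim on both arrays of the myeloid pair. These differences between pairs were not tested, since each rests on single arrays.

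In the pairs of equal label, the 3 markers had opposite signs. The Low pair gave -6.09 for Csf3r, -4.50 for S100a8 and -1.08 for Ccr2, against 6.29, 4.80 and 2.03 in the High pair. These differences were not tested either.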

How the results depend on the processing

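No paired analysis was possible because each condition has 1 array and the labels carry no replicate numbers. Leaving out an array was not possible either.

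Counts depended on the scale and on dim values. Against 357 higher and 1154 lower genes as deposited, and 296 and 95 above background, median centring gave 872 and 608 (710 and 52 above background), quantile normalization 675 and 317 (385 and 59) and cyclic loess normalization 882 and 393 (597 and 50). All 357 higher genes remained higher after median centring, 356 after cyclic loess and 329 after quantile normalization, while 608, 393 and 316 of the lower genes remained lower. The mean of probe sets gave 362 and 1161. With values under background raised to it, 167 and 38 genes were left, and Slco4c1 (-0.39) and Ccrl2 (-0.075) changed sign. With the 90th percentile as background 308 and 146 genes were called, and with the 99th 255 and 41. At 4-fold, 21 and 144 genes were called, 18 and 9 above background. The median of all genes was -0.23 as deposited and between 0.01 (median centring) and 0.06 (cyclic loess) on the other scales. The medians of the lists in the text kept their sign under the other scales except where a value is given with the list.

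The choice of pair changed signs. Tumor Blood Macrophage High minus Normal Blood Macrophage High gave 3520 and 6564 genes (3101 and 958 above background) and a median over all genes of -0.72, and Ticam2 turned to 0.58. Tumor Blood Macrophage Low minus Normal Blood Macrophage Low gave 656 and 1208 genes (515 and 606 above background). In that Low pair the medians of the granule and mature neutrophil lists turned to -1.98 and -2.07, and Eomes to 4.88. Neutrophil genes turned to Csf3r -6.09, Cxcl2 -0.37, Il1r2 -2.91, Acod1 -1.75, Stfa2 -1.50, Hdc -1.64, Clec4d -3.58, Asprv1 -2.41, Slpi -2.39, Trem1 -2.87, Retnlg -2.20, Ngp -3.53, Padi4 -1.80, Chil1 -2.56, Lcn2 -4.95, Mmp8 -6.43 and Ltf -1.20. Classical monocyte genes turned to Vcan -2.12, Cd14 -1.32, Mgst1 -3.09, Clec4e -4.17 and Chil3 -4.05, and immediate early genes to Dusp1 -1.63, Fos -0.28, Atf3 -0.89, Ier3 -1.01 and Zfp36 -0.70. Among the other genes, the values were Slfn4 -3.69, Slfn1 -3.76, Oas2 -1.39, F5 -0.62, Ccr3 -0.41, Ptgs2 -1.93, Sycp2 -1.90, Defb38 -1.30, Osm -0.21, Rab44 -0.52, Tas2r126 -0.90, Slco4c1 -1.87, Csf1 -2.96 and Il15 -2.56. The rest were Il1rap -1.25, Csf2rb2 -0.99, Ccr1 -3.66, Ccrl2 -0.57, Tlr4 -1.12, Nlrp3 -4.17, Casp4 -0.67, Cd80 -0.50, Slc40a1 -5.49, Slc7a11 -2.36, Alox15 -0.55, Anxa1 -1.52, Adam8 -2.00, Cd300lf -2.12, Ccl12 0.048, Stmn1 0.48 and Mki67 -0.043. The 2 arrays of each such pair differ in NK cell and neutrophil genes.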

Other observations

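Several gene groups outside the main comparisons had medians slightly above 0, while others lay below 0 or further above it. None of 15 leukocyte integrin and selectin ligand genes (median difference 0.32), 17 hypoxia and glycolysis genes (0.27), 18 genes of the mitochondrial respiratory chain (0.18), 9 genes of MHC class I presentation (0.21) or 6 Fc receptor genes (0.26) was 2-fold apart. Of 22 myeloid transcription factor genes only Id2, an inhibitor of helix-loop-helix factors, was higher, with 9.98 on the tumor array and a dim 8.98 on the normal array (0.57 with values under background raised to it), and the median was 0.18. C5ar1, the receptor for the anaphylatoxin C5a, had 11.93 and 10.99. Of 15 cell division genes Mki67 was higher, with 9.56 and a dim 8.21 (0.15 with values raised to background), and Stmn1, Rrm2 and Cenpe were lower but dim on both arrays, with a list median of -0.47. Of 15 lipid handling genes Alox15 was higher, and their median was -0.26, or 0.11 under quantile and 0.15 under cyclic loess normalization. Of 11 iron and heme handling genes Slc40a1 and Lcn2 were higher, and their median was 0.67.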
